A study of Mus musculus with 3 samples.

Results

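The genes described here are 37 genes of the response to low oxygen and of glycolysis, chosen by name. They were 16 glycolytic enzymes and 21 other hypoxia genes, the latter made up of 5 genes of oxygen sensing, 4 carriers of glucose and lactate, and 12 further genes induced by hypoxia. Of the 37, 35 had a probe set with a single gene symbol in the platform annotation, out of 19938 genes named in that way. Expression of Gpi1 and Eno1 was not analysed here, while their promoter windows are among those counted below. RNA came from wound tissue on the back of inbred C57Bl/6 mice aged 6 weeks, in which excisions of 1.5 cm2 had removed the epidermis and the dermis. The 3 groups were tissue of day 10, day 12 and day 14 after wounding, all from wounded animals, with no unwounded skin among them. For each day, tissue of 3 mice was combined and measured on 1 one-colour array, so that no difference between days has a replicate error or a test, and each value compares single pools. The labelled tissue, epidermis with dermis, was matched by the keratin genes Krt5 and Krt14, between 13.23 and 13.32 log2 units, and by the collagen genes Col1a1 and Col3a1, between 12.96 and 13.49, over the 3 arrays. The comparison of the days asked how expression stood at successive times of the healing of a large wound.

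In cells with enough oxygen, prolyl hydroxylases of the Egln family mark the alpha subunits of the hypoxia-inducible factors for breakdown through the Vhl protein. When oxygen is scarce the alpha subunits, encoded by Hif1a and Epas1, pair with the protein of Arnt and bind a short DNA element near genes for glucose uptake, glycolysis, lactate and acid export, blood vessel growth and the sparing of mitochondria. Since Hif1a is controlled largely through the stability of its protein, its transcript level is not a measure of the activity of the factor. Glycolysis splits glucose into pyruvate, which lactate dehydrogenase turns into lactate, and skin wounds are known as a tissue low in oxygen and rich in lactate while vessels grow back.

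The sequence before the start site is shown for 7 of the members. Egln3 and Car12 stood higher on day 12 and day 14, and Slc16a3, Bnip3 and Car9 stood lower on day 14. Pgk1 and Ldha are glycolytic enzymes that spanned 0.25 and 0.04 log2 units over the days. Each line gives the 250 bases before the start in the RefSeq annotation of GRCm38.p6, 5′ to 3′, and capitals mark the core of the hypoxia response element, ACGTG or in its other form GCGTG, on either strand. The members shown were picked after their values were seen. Pdk3, which was lower by 1.51-fold on day 14 than on day 10, is not shown, and its window held 4 matches.
Egln3, chr12:54203875-54204124, minus strand: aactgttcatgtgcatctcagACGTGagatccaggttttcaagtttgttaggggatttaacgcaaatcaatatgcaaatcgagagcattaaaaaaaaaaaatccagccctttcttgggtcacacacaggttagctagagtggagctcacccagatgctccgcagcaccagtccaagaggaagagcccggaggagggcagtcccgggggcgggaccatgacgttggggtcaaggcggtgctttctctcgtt
Car12, chr9:66713436-66713685, plus strand: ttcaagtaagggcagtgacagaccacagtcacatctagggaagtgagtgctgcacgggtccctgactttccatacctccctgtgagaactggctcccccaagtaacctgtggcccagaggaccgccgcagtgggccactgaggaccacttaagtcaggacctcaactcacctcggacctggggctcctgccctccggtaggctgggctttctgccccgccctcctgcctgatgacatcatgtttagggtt
Slc16a3, chr11:120948817-120949066, plus strand: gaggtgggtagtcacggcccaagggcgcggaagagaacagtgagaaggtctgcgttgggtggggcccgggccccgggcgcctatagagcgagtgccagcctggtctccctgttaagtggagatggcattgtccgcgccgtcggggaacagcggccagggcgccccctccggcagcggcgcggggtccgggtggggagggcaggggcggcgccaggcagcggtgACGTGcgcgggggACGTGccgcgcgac
Bnip3, chr7:138909507-138909756, minus strand: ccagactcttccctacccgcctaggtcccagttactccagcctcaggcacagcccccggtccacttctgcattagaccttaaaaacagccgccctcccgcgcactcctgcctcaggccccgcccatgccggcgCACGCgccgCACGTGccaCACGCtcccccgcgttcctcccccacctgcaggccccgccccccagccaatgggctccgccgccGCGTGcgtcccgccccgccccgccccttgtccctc
Car9, chr4:43506776-43507025, plus strand: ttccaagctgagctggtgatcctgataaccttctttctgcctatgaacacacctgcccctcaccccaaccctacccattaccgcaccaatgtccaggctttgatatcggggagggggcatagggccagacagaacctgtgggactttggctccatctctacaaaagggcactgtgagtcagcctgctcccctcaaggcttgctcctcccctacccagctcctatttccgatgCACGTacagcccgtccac
Pgk1, chrX:106186850-106187099, plus strand: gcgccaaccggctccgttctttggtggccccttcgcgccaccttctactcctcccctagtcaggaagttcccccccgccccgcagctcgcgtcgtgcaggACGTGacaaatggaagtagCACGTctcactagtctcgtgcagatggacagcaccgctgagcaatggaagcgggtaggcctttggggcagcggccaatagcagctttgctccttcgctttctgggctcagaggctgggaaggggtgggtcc
Ldha, chr7:46845554-46845803, plus strand: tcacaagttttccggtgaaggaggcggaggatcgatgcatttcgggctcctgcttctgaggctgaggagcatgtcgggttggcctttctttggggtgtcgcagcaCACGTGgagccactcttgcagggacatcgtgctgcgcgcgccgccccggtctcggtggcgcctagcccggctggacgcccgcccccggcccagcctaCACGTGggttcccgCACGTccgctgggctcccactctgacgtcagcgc

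Bnip3 and this window of Ldha each held 5 overlapping or separate matches, Slc16a3 and Pgk1 held 2, Car9 and Egln3 held 1 and Car12 held 0. The hexamer CACGTG, which reads the same on both strands and so counts as 2 matches, lay in the windows of Bnip3 and Ldha, and it is also the E-box bound by Myc and related factors. At least 1 core was found in 39 of 49 windows of 34 members (79.6%) and in 12679 of 32851 windows of the whole table (38.6%). The windows of members were also richer in bases G and C, with a median of 60.4% against 52.4%, and in CG pairs, with a median of 13 against 6, and what this contributes to the share was not tested. By gene, at least 1 window held a core for 13 of 16 glycolytic enzymes and 17 of 18 other hypoxia genes, beside 11226 of 27025 genes of the table (41.5%). A gene with more windows has more chances of a match, and members had more windows per gene than the whole table. Some windows of the same member overlap and share matches. Epas1, Slc2a3 and Ndrg1 had no window in the table. A core is a match of letters and was not shown to be bound here.

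None of the 35 genes differed by 2-fold or more between any of the days. Among all 19938 genes, 0.918% differed by 2-fold or more in either direction from day 10 to day 12, 0.251% for days 12 and 14 and 1.77% over the whole span from day 10. At such shares a count of 0 among 35 genes is near the background. The median size of the member differences was 0.15 for days 10 and 12, 0.10 for days 12 and 14 and 0.18 for days 10 and 14. Over the 9969 genes whose mean reached the median over genes, it was 0.09, 0.05 and 0.13. The members with the largest differences were outside glycolysis. Car12 and Egln3 were higher on day 14 than on day 10 by 0.65 and 0.64 on the log2 scale (1.57-fold and 1.55-fold), while Car9 and Pdk3 were lower by 1.55-fold and 1.51-fold. Slc16a3 and Bnip3 were lower on day 14 than on day 12, by 1.57-fold and 1.54-fold.

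**Figure D1:**
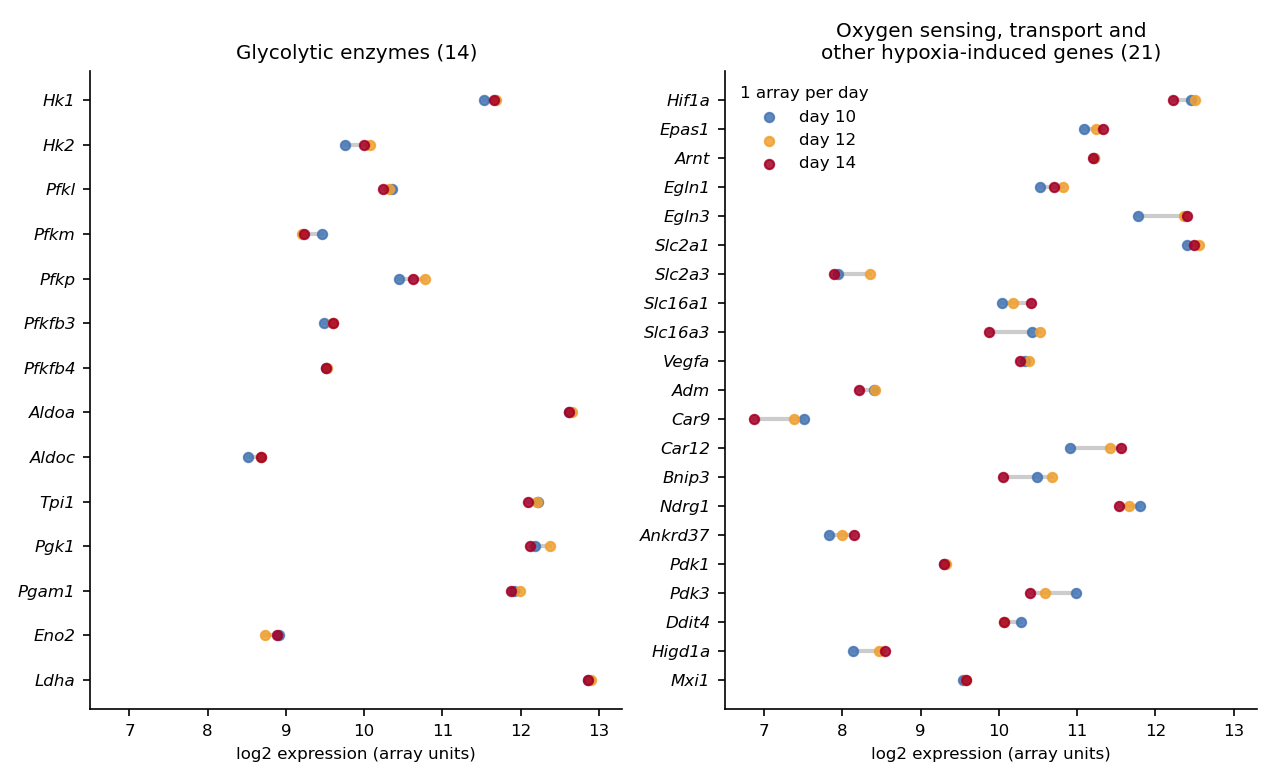
Log2 expression of the 14 glycolytic enzymes (left) and the 21 other hypoxia genes (right), 1 point per day and array, with a grey bar over the range of the 3 days. Days lie close together for most enzymes, while Egln3, Slc16a3, Car9, Car12, Bnip3 and Pdk3 span 0.59 to 0.65 log2 units. Positions of different genes along the axis are not comparable, since they come from different probes.

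At a threshold of 1.5-fold, 1 of 35 members was higher on day 12 than on day 10 (2.86%), beside 2.33% of all genes and 3.79% of the 9969 genes whose mean reached the median over genes, 8.25 log2 units. No member was lower by 1.5-fold, beside 0.958% and 1.47%. Between day 12 and day 14, 2 members were lower on the later day (5.71%), beside 0.712% and 1.05%, and none was higher, beside 0.271% of either set. From day 10 to day 14, 2 were higher on the later day, beside 3.11% and 4.81%, and 2 were lower, beside 2.98% and 4.83%, which is near the background. All of these counts rest on 1 or 2 genes near the threshold. Egln3 on day 12 against day 10 fell short of it when arrays were centred on their medians, Bnip3 on day 14 against day 12 fell short under quantile normalization, and Pdk3 on day 14 against day 10 fell short under centring, quantile normalization and cyclic loess.

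The only spread that these arrays offer is that between probe sets of the same gene. Over 614 genes with a pair of probe sets that did not hold equal values, the difference between days disagreed within the pair by up to 0.33 in 95% of genes for days 10 and 12, by up to 0.25 for days 12 and 14, and by up to 0.39 for days 10 and 14. This limit covers measurement within an array, and animals may vary by more. Past these limits, 5 members were higher (Car12, Egln3, Slc2a3, Higd1a and Pfkp) and 1 was lower (Pdk3) on day 12 against day 10, where 8.48% and 7.86% of the 9969 genes were. Against day 12, 0 were higher on day 14 and 6 were lower (Slc16a3, Bnip3, Car9, Slc2a3, Hif1a and Pgk1), beside 2.99% and 7% of genes. Against day 10, 3 were higher on day 14 (Car12, Egln3 and Higd1a) and 4 lower (Car9, Pdk3, Slc16a3 and Bnip3), beside 7.79% and 11.3%. Pfkp and Pgk1 were the only glycolytic enzymes among them, each close to the limit, Pfkp with 0.33 in the earlier interval and Pgk1 with −0.25 in the later one.

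Among the genes of oxygen sensing, Hif1a, the alpha subunit that is broken down in oxygen, stood at 12.46 on day 10, 12.51 on day 12 and 12.23 on day 14. It was thus alike on the earlier days and lower by 1.21-fold on day 14 than on day 12. Epas1, which encodes the related subunit HIF-2 alpha known from endothelium, stood at 11.09, 11.24 and 11.33, with the order of the days reversed relative to Hif1a between day 12 and day 14. Arnt, the constant partner, stood at 11.22, 11.22 and 11.21, with equal values on day 10 and day 12. The endothelial list moved the other way from Epas1, with 11 of 12 genes lower on day 12 than on day 10 and a summed linear level of 78.4% of day 10 on day 12 and 72.6% on day 14. Its lowest value on any array was 9.31 log2 units. Its part in the Epas1 values was not tested. In tissue such as this, fewer cells of a type and less RNA per cell cannot be told apart.

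Egln1 and Egln3 encode prolyl hydroxylases that are themselves induced by the factors they restrain. Egln3 stood at 11.77 on day 10, 12.37 on day 12 and 12.41 on day 14, so that day 10 was apart from the later days. The difference was 0.59 on day 12 and 0.64 on day 14, both against day 10. Egln1 stood at 10.53, 10.82 and 10.71, which put day 12 highest, 0.29 above day 10. Of the 7 other genes of oxygen sensing looked up, which include the remaining hydroxylase gene Egln2, none differed by 1.5-fold. Vhl, the adaptor for breakdown of the alpha subunits, had 9.77, 9.59 and 9.41 and differed by −0.36 on day 14 against day 10. Hif3a, at 6.14, 6.14 and 6.36, Cited2, at 10.68, 10.90 and 10.89, and Egln2, at 9.86, 9.86 and 9.87, lay within 0.22 over the days.

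Slc2a1 encodes the widespread glucose transporter GLUT1 and stood at 12.40, 12.56 and 12.49 on days 10, 12 and 14. Slc2a3 encodes GLUT3, found in neurons and in leukocytes, and stood at 7.94, 8.36 and 7.89, which is 0.42 higher on day 12 than on day 10 and a difference of −0.47 from there to day 14. Its mean lay below the median over genes. Slc16a1 and Slc16a3 encode the lactate carriers MCT1, which works in both directions, and MCT4, which exports lactate from glycolytic cells. Slc16a1 stood at 10.04, 10.19 and 10.41 and was higher on each later day, by 0.37 in all. Slc16a3 stood at 10.43, 10.52 and 9.87, with a difference of 0.09 from day 10 to day 12 and of −0.65 from there to day 14. The median over the 4 carriers was 0.15 from day 10 to day 12 and −0.27 from day 12 to day 14.

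**Figure D2:**
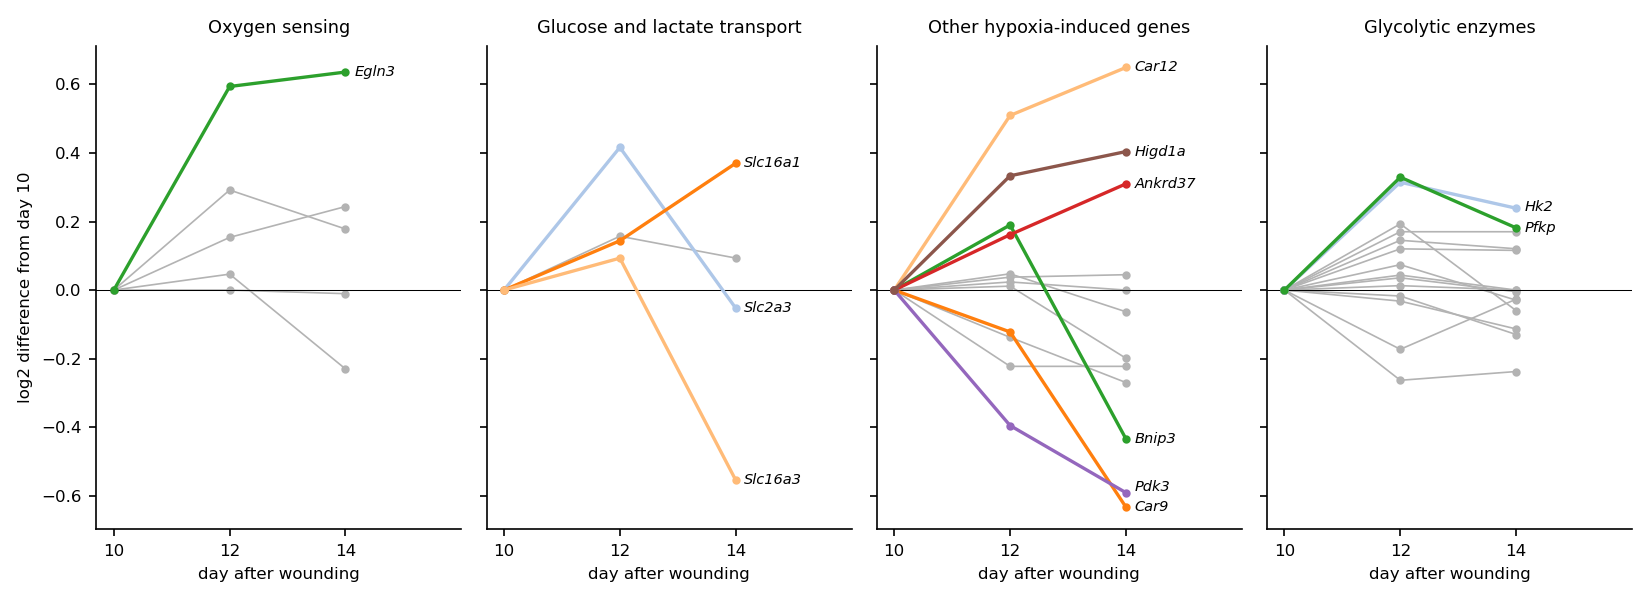
Log2 difference from day 10 (vertical axis) on days 10, 12 and 14 (horizontal axis) for each measured member in 4 panels by role, 1 array per day. Lines are coloured and named where the 3 values span at least 0.3 log2 units and grey otherwise. Egln3, Car12, Higd1a, Ankrd37 and Slc16a1 end above day 10, and Bnip3, Slc16a3, Pdk3 and Car9 end below it.

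Slc2a3, Slc16a3, Bnip3 and Hif1a were highest on day 12 and lower on day 14, Hif1a with only 0.05 on day 12 against day 10. Macrophage markers had a like order of the days, while neutrophil markers as a list were level on the earlier days. In the macrophage list, 11 of 12 genes were higher on day 12 than on day 10 and 11 of 12 were lower on day 14 than on day 12, and the summed linear level was 119% of day 10 on day 12 and 93.5% on day 14. Its genes lay between 6.09 and 13.24 log2 units, and Arg1 and Cd14 differed by −1.26 and −1.37 on day 14 against day 12. The neutrophil list had 6 of 12 genes higher, 3 lower and 3 equal on day 12 against day 10, with a median of 0.00075. On day 14 against day 12, 8 of 12 were lower, and the summed levels were 101% and 85.8% of day 10 on days 12 and 14. In it, Mmp8 and Trem1 differed by −2.42 and −2.14 on day 14 against day 12, and the lowest value of the list was 5.81. What these cells contribute to the 4 members was not tested.

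Among the other hypoxia-induced genes, the carbonic anhydrases at the cell surface differed in direction. Car9, the gene most often used as a mark of hypoxic cells, stood at 7.50, 7.38 and 6.87, close to or below the median of all probe sets, and was lowest on day 14, with a difference of −0.51 from day 12. Car12 stood at 10.91, 11.42 and 11.56, with day 10 below the later days by 0.51 and 0.65. Both enzymes turn carbon dioxide into bicarbonate and protons outside the cell, where they help to buffer acid. Car12 and Egln3 thus stood higher on the later days, as did most genes of the cornified epidermis, sebaceous gland, basal epidermis and adipocyte lists. In the cornified epidermis list, 10 of 11 measured genes were higher on day 12 than on day 10, and the summed linear level was 137% of day 10 on day 12 and 149% on day 14, with values between 6.01 and 13.58. Flg2 and Krt77 of that list were higher by 2.66 and 2.42 on day 14 than on day 10. The part of epidermal or adipocyte content in Car12 and Egln3 was not tested. The sebaceous gland list had summed levels of 316% and 306% of day 10, with 8 of 8 genes higher on both days and Fa2h and Krt79 higher by 1.95 and 1.92 on day 14, and its part was not tested either.

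Bnip3 and Higd1a encode proteins of the mitochondrial membrane, of which the Bnip3 protein promotes removal of mitochondria and the Higd1a protein supports the respiratory chain. Bnip3 had 2 probe sets, at 10.87, 11.19 and 10.48 and at 10.12, 10.17 and 9.63. Both were lowest on day 14, with differences of −0.71 and −0.54 from day 12 and of −0.62 for their mean. Higd1a had 2 probe sets that disagreed. The one was at 8.59, 8.68 and 8.68, and the other at 7.69, 8.27 and 8.41, so that the difference of day 14 against day 10 was 0.09 by the former and 0.72 by the latter. The mean of 0.40 for Higd1a is uncertain for that reason.

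Pdk1 and Pdk3 encode kinases that switch off pyruvate dehydrogenase and so keep pyruvate from the mitochondria. Pdk1, the member of that family best known as a target of HIF-1, stood at 9.30, 9.32 and 9.30, with equal values on day 10 and day 14. Pdk3 stood at 10.98, 10.59 and 10.39 and was lower on each later day. The order of the days thus differed between the kinases. Pdk2 and Pdk4, from the list of mitochondrial pyruvate use, stood at 9.72, 9.45 and 9.44 and at 8.01, 7.93 and 7.52.

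The secreted factors of the list differed little. Vegfa, the main growth factor of blood vessels, stood at 10.34, 10.39 and 10.28, a span of 0.11. Adm, the vasodilator peptide adrenomedullin, stood at 8.41, 8.42 and 8.21, with day 14 lowest. Both spans lie inside the disagreement of probe sets given above. The remaining genes did not share a direction. Ndrg1, a stress-induced gene of differentiating epithelia, stood at 11.81, 11.67 and 11.54, and Ddit4, an inhibitor of mTOR signalling, at 10.28, 10.06 and 10.06. Ankrd37, a direct target of HIF-1, stood at 7.83, 8.0 and 8.14, and Mxi1, an antagonist of Myc, at 9.54, 9.57 and 9.58. Ndrg1 and Ddit4 were thus highest on day 10 and Ankrd37 on day 14. Over the 12 genes of this group, 8 were higher and 4 lower on day 12 against day 10, with a median of 0.03. Of the 9969 genes whose mean reached the median, 32.8% were higher and 45.3% lower in that pair of days. Between day 12 and day 14 the counts were 4 higher, 7 lower and 1 equal, with a median of −0.07, and between day 10 and day 14 they were 4, 7 and 1, with a median of −0.13. Of the 9969 genes, 24.6% were higher and 49.8% lower in the former pair of days, and 29.3% and 53.3% in the latter. Both counts of the group are near that background.

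The glycolytic enzymes kept closer together than the other hypoxia genes. The median size of the difference on day 14 against day 10 was 0.11 for the 14 enzymes and 0.24 for the 21 other genes, beside 0.13 for the 9969 genes whose mean reached the median. On day 12 against day 10 these values were 0.13, 0.15 and 0.09. The differences of the enzymes ran from −0.26 to 0.33 for days 10 and 12, from −0.25 to 0.15 for days 12 and 14 and from −0.24 to 0.24 for days 10 and 14. Of the 14, 10 were higher on day 12 than on day 10, 4 were lower, and the median was 0.06, where the 9969 genes had 32.8% higher, 45.3% lower, 21.9% equal and a median of 0. From day 12 to day 14, 2 were higher on the later day, 11 lower and 1 equal, with a median of −0.04, beside 24.6%, 49.8% and 25.5% and a median of 0. This split depended on the scaling: it was 6 higher and 8 lower after centring, quantile normalization and cyclic loess alike, where 58.2%, 62.0% and 55.9% of the 9969 genes were higher. From day 10 to day 14, 5 were higher, 7 lower and 2 equal, with a median of −0.0024, beside 29.3%, 53.3% and 17.4% and a median of −0.02. Here the split turned to 8 higher and 6 lower after centring, 10 and 4 after quantile normalization and 9 and 5 after cyclic loess. For the 21 other genes, 9 higher and 11 lower became 11 and 10 under each of these scalings. Under all 3 scalings 10 enzymes were higher on day 12 than on day 10, beside 30.2%, 43.6% and 56.8% of the 9969 genes. This was not particular to the enzymes. Of the 21 other genes, 16 were higher on day 12 than on day 10 as deposited, and 15, 16 and 17 under these scalings in turn. From day 12 to day 14 the other genes had 7 higher and 13 lower as deposited. That split became 10 and 11, 10 and 11, and 9 and 12 under the scalings.

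**Figure D3:**
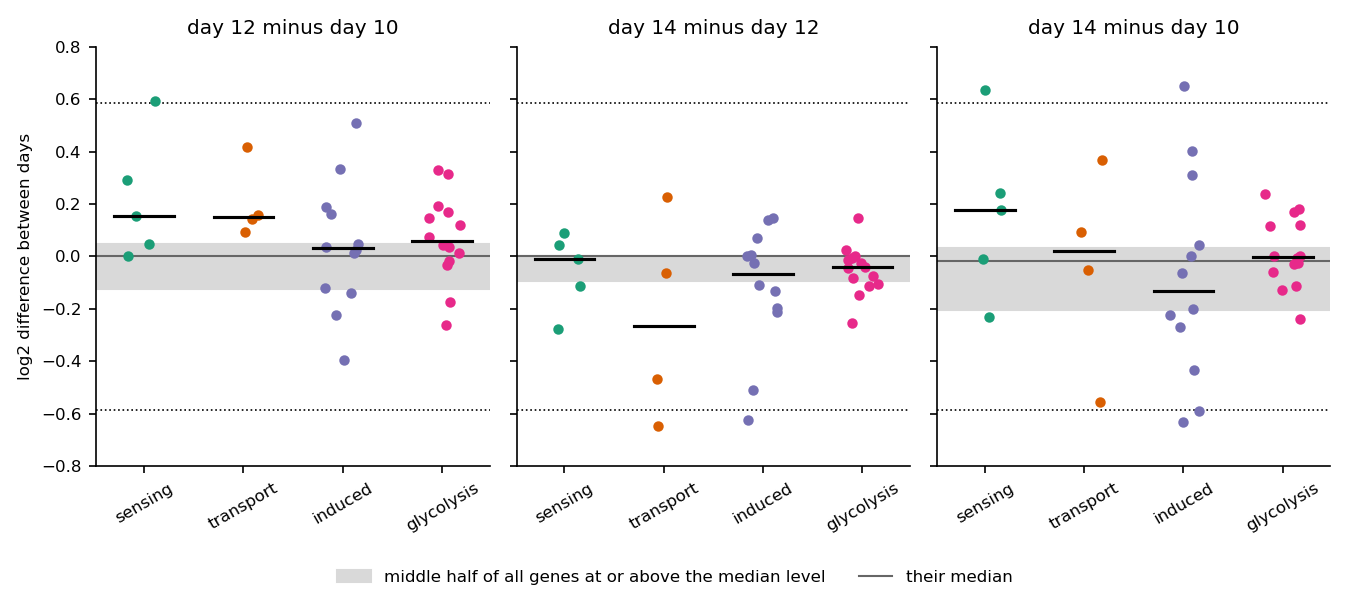
Log2 difference between days for each measured member by role (points) with the median of the role (black bar), in 1 panel per pair of days. The grey band is the interquartile range of the 9969 genes whose mean reached the median, the grey line is their median, and dotted lines mark 1.5-fold. The glycolytic enzymes lie between −0.26 and 0.33 in all panels.

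Hexokinases trap glucose in the cell by phosphorylation. Hk2, the form induced by hypoxia and in growing cells, stood at 9.76, 10.07 and 10.00, with day 10 lowest. Hk1 had 2 probe sets with a single symbol, at 10.22, 10.49 and 10.44 and at 12.85, 12.87 and 12.87. The brighter one was named only through an accession that 17 other probe sets hold, 16 of them annotated to the ribosomal protein gene Rpl17 as well as to Hk1. It is therefore uncertain as a measure of Hk1. The other probe set was 0.27 higher on day 12 and 0.22 higher on day 14 than on day 10.

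Phosphofructokinase commits sugar to glycolysis and is made from muscle, liver and platelet type subunits. Pfkp, the platelet type, stood at 10.45, 10.77 and 10.63, highest on day 12 by 0.33 over day 10. Pfkm, the muscle type, stood at 9.47, 9.20 and 9.23 and was highest on day 10. Pfkl, the liver type, stood at 10.35, 10.32 and 10.24. The subunit genes thus differed in direction, with Pfkp higher and Pfkm lower on both later days. The skeletal muscle list, whose 10 genes lay between 5.58 and 8.82 log2 units, had summed levels of 90.4% and 93.8% of day 10 on days 12 and 14, and smooth muscle and myofibroblast genes had 58.6% and 46.4%, with 0 of 8 higher on either day. On day 14 against day 10, the skeletal muscle list had 2 genes higher, 2 lower and 6 equal, with a median of 0. Acta1 and Myh4 of that list differed by −0.50 and −0.18, and Cnn1 and Actg2 of the smooth muscle list by −2.55 and −2.20. Their part in Pfkm was not tested. Pfkfb3 and Pfkfb4 make the activator fructose 2,6-bisphosphate. Pfkfb3 stood at 9.48, 9.61 and 9.60, and Pfkfb4 at 9.51, 9.52 and 9.51, with equal values on day 10 and day 14.

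Among the enzymes after phosphofructokinase, Aldoa, Tpi1, Pgam1 and Ldha spanned at most 0.13 over the days, Aldoc and Eno2 0.17 and Pgk1 0.25. Aldoa, the main aldolase outside liver and brain, stood at 12.62, 12.65 and 12.61, and Aldoc, the brain form that hypoxia can induce, at 8.52, 8.69 and 8.69. Tpi1, which interconverts the triose phosphates, stood at 12.23, 12.21 and 12.10. Pgam1, the phosphoglycerate mutase, stood at 11.91, 11.99 and 11.88 as the mean of 3 probe sets, of which a pair held equal values, and all gave the same order of the days. Ldha, which makes lactate from pyruvate, stood at 12.86, 12.90 and 12.86, with equal values on day 10 and day 14 and a span of 0.04. The window of Ldha shown above holds 5 matches to the hypoxia core, and another window of Ldha holds 1. Bnip3, whose window also holds 5 matches, spans 0.62.

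Pgk1, the phosphoglycerate kinase that yields the first ATP of the pathway, was the glycolytic gene lowest on day 14 relative to day 12. It stood at 12.18, 12.38 and 12.12, which is 0.19 higher on day 12 than on day 10 and a difference of −0.25 from there to day 14. Its 3 probe sets differed by −0.26, −0.26 and −0.24 on day 14 against day 12, but a pair of them held equal values on every day and counts as 1 measurement. Eno2, the neuronal enolase, stood at 8.91, 8.74 and 8.89 and had the opposite order, with day 12 lowest.

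Day 12 was the day of the highest value for 18 of 35 members. These were 9 of the 14 glycolytic enzymes (Hk1, Hk2, Pfkp, Pfkfb3, Pfkfb4, Aldoa, Pgk1, Pgam1 and Ldha) and 9 of the 21 other genes (Hif1a, Egln1, Slc2a1, Slc2a3, Slc16a3, Vegfa, Adm, Bnip3 and Pdk1). Of the 9969 genes whose mean reached the median, 14.4% were highest on day 12, 42.6% on day 10, 18.3% on day 14 and 24.7% were tied for the highest value. On the deposited scale 0 glycolytic enzymes and 7 other genes were highest on day 14. After centring and after cyclic loess, 4 enzymes were highest on day 14 (Aldoc, Hk1, Pfkfb3 and Pfkfb4), after quantile normalization Eno2 as well, and the enzymes highest on day 12 numbered 6 under each of these scalings. Over all members, the number highest on day 12 was 13 of 35 after centring and after quantile normalization, beside 11% and 12.2% of genes, and after cyclic loess it was 15, beside 17.8%. Of the 18, 9 exceeded the second highest day by less than 0.05, and the count rests on the single day 12 array, on which macrophage genes were also higher. What sets the count was not tested.

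**Figure D4:**
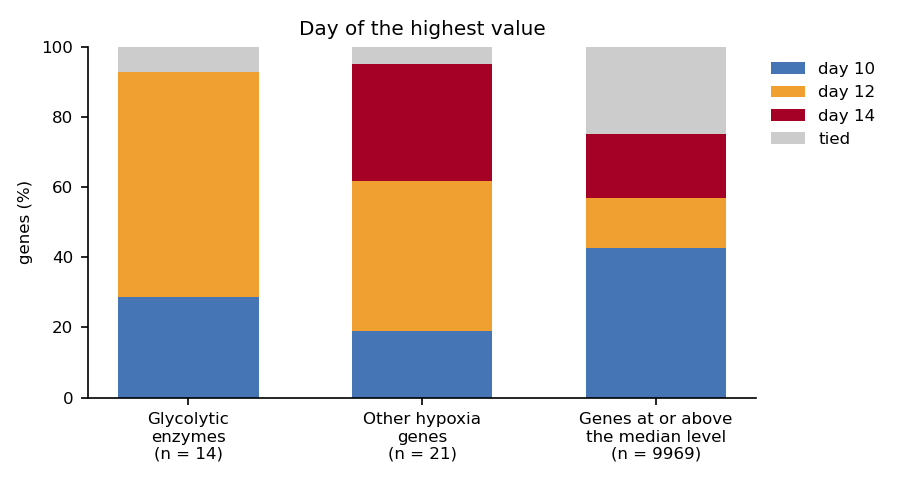
Share of genes (vertical axis, percent) by the day on which their value was highest, for the 14 glycolytic enzymes, the 21 other hypoxia genes and the 9969 genes whose mean reached the median over genes, with ties in grey. Day 12 was highest for 64.3%, 42.9% and 14.4% on the deposited scale, and 6 of the 14 enzymes in place of 9 were highest on that day after centring, quantile normalization or cyclic loess.

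Genes of mitochondrial fuel use were taken from lists by pathway and are read beside the 9969 genes, of which 45.3% were lower and 21.9% equal on day 12 against day 10. Of 12 genes of mitochondrial pyruvate use, 0 were higher, 8 lower and 4 equal on day 12 against day 10, with a median of −0.10, and the median on day 14 against day 12 was 0. Pcx, pyruvate carboxylase, stood at 8.94, 8.68 and 8.68, and Pdha1, a subunit of pyruvate dehydrogenase, at 10.84, 10.60 and 10.61. Of 15 citric acid cycle genes, 1 was higher, 10 lower and 4 equal on day 12 against day 10, with a median of −0.10. Suclg2, Mdh2, Dlst and Sdhc of that cycle differed by −0.44, −0.34, −0.34 and −0.29 on day 14 against day 10. The 28 genes of the respiratory chain had 5 higher, 15 lower and 8 equal, with a median of −0.02, which is near that background. In that list Ndufs4, Ndufa9, Ndufv1 and Ndufs8 differed by −0.28, −0.28, −0.28 and −0.27 on day 14 against day 10, while Ndufa4 differed by 0.27. For these days 6 genes of the list were higher, 16 lower and 6 equal, beside 29.3%, 53.3% and 17.4% of the 9969 genes. None of the genes in these 3 lists differed by 1.5-fold between any days, and of the genes named from them Suclg2 and Pdk4 passed the limit of probe set disagreement for days 10 and 14, with −0.44 and −0.49.

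The other members of glycolysis that were looked up, 16 of 20 measured, had 3 higher, 8 lower and 5 equal on day 12 against day 10. Hk3, a hexokinase of leukocytes, stood at 7.86, 8.33 and 8.27. Pgm2 and Galm, which feed sugar phosphates and galactose into the pathway, stood at 11.03, 10.66 and 10.53 and at 9.39, 9.04 and 8.95, and Bpgm, which makes bisphosphoglycerate, at 8.44, 8.27 and 8.07. These 3 were lower on each later day and Hk3 was not. A further list of 41 genes described as hypoxia-inducible, of which 39 were measured, had 15 higher and 17 lower on day 12 against day 10, with a median of 0. Of the 9969 genes, 32.8% were higher and 45.3% lower in that pair of days. From day 12 to day 14, 4 were higher, 28 lower and 7 equal, with a median of −0.11, beside 24.6%, 49.8% and 25.5%. Over the whole span from day 10, 9 were higher, 25 lower and 5 equal, with a median of −0.13, and 2 were higher and 6 lower by 1.5-fold. Over that span 29.3% of the 9969 genes were higher and 53.3% lower, and 4.81% and 4.83% were so by 1.5-fold. Angptl4, a lipase inhibitor, stood at 10.60, 9.69 and 9.28 and differed by −1.32 on day 14 against day 10. Plod2, a collagen lysyl hydroxylase, stood at 10.55, 10.22 and 9.72. Hmox1, heme oxygenase, stood at 12.23, 12.29 and 11.30, and Rora, a nuclear receptor of the clock, at 10.22, 11.03 and 11.28. On day 14 against day 10 these differences were −1.32 for Angptl4, 1.07 for Rora, −0.93 for Hmox1 and −0.84 for Plod2, and each was larger in size than that of any of the 35 members.

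**Figure D5:**
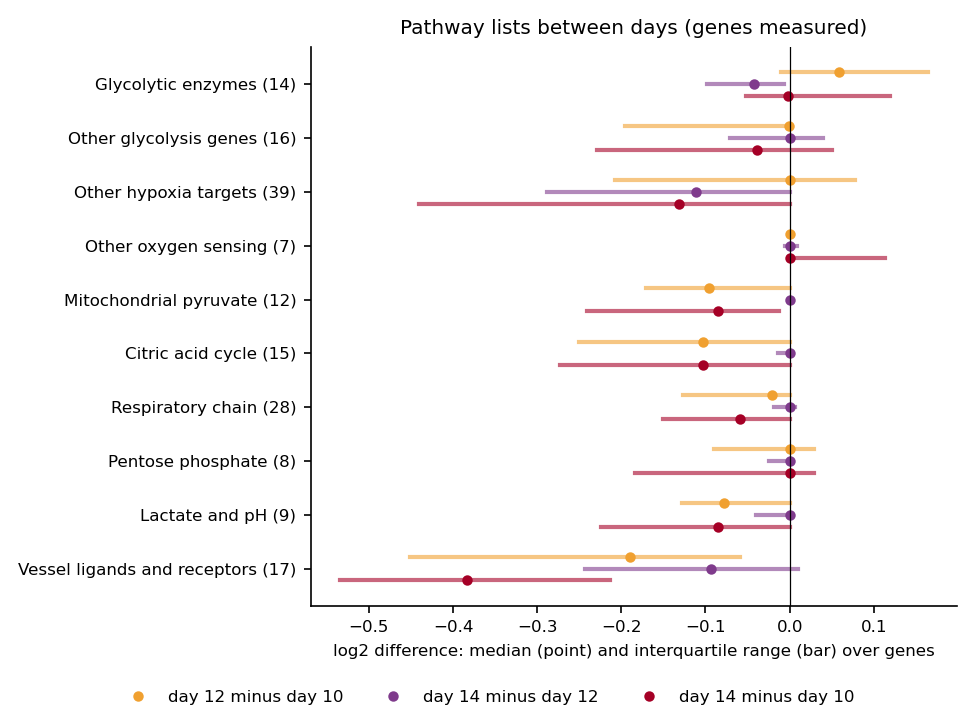
Median (point) and interquartile range over genes (bar) of the log2 difference for 10 pathway lists, with the number of genes measured, for each pair of days. The glycolytic enzymes have a median of 0.06 on day 12 against day 10, whereas the citric acid cycle and mitochondrial pyruvate lists have −0.10. The other glycolysis genes have a median of −0.0003 for these days and the respiratory chain list −0.02.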

How the data were processed

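RNA of pooled wound tissue was amplified from 250 ng of total RNA and hybridised to 1 array per day, per the labels' protocols. The values deposited by the authors are log2 expression, 1 for each probe set of an array. Per the submitters' processing notes RMA and Partek 6.6 were used, in roles not given, and the log2 scale was taken from the range of the values, 4.37 to 14.09. The median over 35556 probe sets was 7.53, 7.55 and 7.53. Scanner files were not used here, detection of single probe sets is unknown, and precision is limited by the number of arrays.

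The platform annotation named a single gene for 21789 probe sets and more than 1 for 1621, leaving 12146 unlisted. Probe sets of a gene were averaged, giving 19938 genes. An Entrez match to GRCm38.p6 covered 21698 of the 21789 and changed 0 symbols. Differences between days were counted at 2-fold and 1.5-fold with no level filter. No p-value was computed. Many values are equal on several arrays, so a difference of 0 is not a precise measurement. Members and gene lists were chosen with earlier results of these data known, and some genes belong to several lists. All members were named, together with the 4 genes of each pathway list and the 2 of each marker list that differed most between day 14 and day 10. Ndufa4 was named after its value was seen. Promoter windows came from RefSeq. Alternatives were level filters, centring, cyclic loess, quantile normalization, other thresholds, the brightest probe set, removal of ties and, chosen after seeing the data, Hk1 from its other probe set and equal probe sets counted once. Counting was tested on simulated data. Python 3.11.15, pandas 2.3.3, R 4.3.3 and limma 3.58.1 were used.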

Additional observations from a re-analysis of the deposited data

How the results depend on the processing

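With 1 array per day, no replicate could be left out. No paired analysis was possible because each day has 1 sample and no test was made. For medians and single genes, a value was taken as moved when it shifted by more than the robust standard deviation between probe sets of a gene, 0.05 for day 12 against day 10, 0.05 for day 14 against day 12 and 0.07 for day 14 against day 10. The medians of the glycolytic enzymes, of the other hypoxia genes and of the 9 other pathway lists shifted by less than this under every alternative run for them. Several of these medians are themselves no larger than this limit, so for them the check cannot show that they hold. The median of the enzymes on day 14 against day 12 went from −0.04 to −0.006 under quantile normalization, a shift below the limit. Of 420 values of single members under centring, quantile normalization, cyclic loess and the brightest probe set, 410 shifted by less, 10 by more, and 0 of the differences past 1.5-fold changed sign. The brightest probe set moved Hk1, Higd1a and Bnip3, to 0.02, 0.09 and 0.32 on day 12 against day 10. Counts at the 2-fold threshold were 0 in both groups for all pairs of days. Among the other hypoxia genes, lowering it to 1.5-fold gave 1 higher on day 12 against day 10, 2 lower on day 14 against day 12, and 2 higher and 2 lower on day 14 against day 10, and a threshold of 0.32 on the log2 scale gave 4 higher and 1 lower, then 4 lower, then 4 higher and 4 lower. For the glycolytic enzymes, the latter threshold gave 1 higher on day 12 against day 10. Scaling moved the median of all genes by at most 0.02. Differences near 0 have no settled sign. With the scaling or the probe set, those of Hk1, Pfkfb3, Pfkfb4, Pdk1 and Arnt changed sign from day 12 to day 14, those of Adm and Arnt from day 10 to day 12, and those of Aldoa, Arnt, Eno2 and Pgam1 from day 10 to day 14. Aldoc, equal on day 12 and day 14 as deposited, was higher on day 14 after each rescaling. The counts of enzymes higher and lower on day 14 rest on such genes. Car9, Slc2a3 and Ankrd37 had means below the median over genes, and their signal over background is unknown.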

Other observations

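The genes for ligands and receptors of blood vessels, other than Vegfa and Adm, were lower on the later days. Of 17 measured, 2 were higher and 14 lower on day 12 against day 10, with a median of −0.19, and 1 was higher and 16 lower on day 14 against day 10, with a median of −0.38. Of the 9969 genes, 32.8% were higher and 45.3% lower in the former pair of days, and 29.3% and 53.3% in the latter. Angpt1, which steadies vessels, stood at 7.34, 6.42 and 6.55 on days 10, 12 and 14, and Angpt2, its counterpart that loosens them, at 9.91, 9.46 and 9.24. Pgf, a ligand of the Vegf family, stood at 8.58, 8.28 and 7.80, and Apln, a peptide of sprouting endothelium, at 10.54, 10.46 and 9.85. The endothelial markers Sox18 and Plvap were lower as well, with differences of −1.02 and −0.91 on day 14 against day 10, and what the content of endothelium contributes was not tested. Vegfa itself, at 10.34, 10.39 and 10.28, spanned 0.11.

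Of the 9 measured genes of lactate and pH handling outside the members, Slc16a4, a monocarboxylate carrier, stood at 7.59, 6.77 and 6.69, and Car13, a carbonic anhydrase of the cytosol, at 11.54, 11.76 and 11.97. Ldhb, the subunit of lactate dehydrogenase that favours use of lactate, stood at 8.29, 8.06 and 8.06, and the bicarbonate carrier Slc4a4 at 8.72, 8.59 and 8.46. Their median was −0.09 on day 14 against day 10. The pentose phosphate list, with 8 of 9 genes measured, had a median of 0 for each pair of days. Within it, Pgls stood at 9.39, 9.04 and 9.03 and Rpia at 8.49, 8.62 and 8.80, in opposite directions, while H6pd and Taldo1 differed by −0.19 and −0.18 on day 14 against day 10.

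Marker lists whose values are not given above are described here by their summed linear level on day 12 and day 14 as a share of day 10. The basal epidermis list stood at 105% and 109%, with Krt15 and Col17a1 higher by 1.94 and 0.65 on day 14 than on day 10. In that list 7 of 8 genes were higher on day 14 than on day 10 and 1 was lower, at −0.47, with a median of 0.05. Fibroblast genes stood at 97.1% and 94.5%, with Thy1 and Pdgfrb at −0.42 and −0.29, and cell cycle genes at 78.7% and 72.3%, with Kif2c and Nuf2 at −0.87 and −0.80. The adipocyte list stood at 132% and 127%, with Lpl and Cebpa at 0.72 and 0.59. Of its 8 genes, 7 were higher on day 14 than on day 10 and 1 was lower, at −0.34, with a median of 0.10. Of 7 red cell genes 2 were measured, Slc4a1 and Alas2, which differed by 0.06 and 0.05 and together stood at 137% and 104%.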
